A study of Homo sapiens with 6 samples.

Results

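The genes described here are 10 genes of calcium release, refill and entry at the endoplasmic reticulum, and of the calcineurin and NFAT step that reads the calcium signal in T cells. They are ITPR1, ITPR2, ITPR3, ATP2A2, ATP2A3, STIM1, ORAI1, PPP3CA, PPP3R1 and NFATC2, chosen by name from the 26485 gene symbols of the deposited count table, and all 10 were found there. The RNA with poly(A) tails came from the human cell line H9, a long-established T lymphoma line that the labels call a cutaneous T lymphocyte. The 3 PA4 libraries came from cells given PA4, the code name of a berbamine derivative, at 1 µM for 24 h, and the 3 control libraries from cells given the vehicle DMSO. All 6 came from this 1 line, grown in RPMI 1640 medium with 10% serum. The labels do not say that replicates were separate cultures, so p-values measure the spread between these libraries, which may be technical.

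In a resting T cell the endoplasmic reticulum holds calcium at a high level. Activation of the antigen receptor makes phospholipase C release the messenger IP3, which opens IP3 receptors in the membrane of the store. SERCA pumps refill the store, while the sensor STIM1 reports its emptying to the plasma membrane channel ORAI1, through which calcium then enters. Calmodulin loaded with calcium switches on the phosphatase calcineurin, which removes phosphates from NFAT proteins so that they enter the nucleus and act on cytokine genes. The submitters used the comparison of PA4 with DMSO to look for how the compound kills these cells.

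Library totals were 18282212 to 22875191 counts with PA4 and 19033853 to 19260434 in control. The 10 genes together took 0.154% to 0.156% of the counts of PA4 libraries and 0.15% to 0.157% of those of control libraries. Single members had between 208 counts, for ORAI1 in PA4 replicate 3, and 13207 counts, for ATP2A2 in PA4 replicate 2. The T cell genes CD3D, CD3E, CD3G, CD5 and LCK each had at least 1824 counts in every library, whereas CD4 had at most 12 and CD2 at most 1. Of 13 T cell markers 11 were tested and 0 called, against 0.231% of all tested genes. The summed level of the 13 was 946 to 985 CPM with PA4 and 967 to 1015 CPM in control. Markers of myeloid cells, fibroblasts and pluripotent stem cells summed to at most 1.23 CPM with PA4 and 1.04 CPM in control. Other lists were higher: B cell markers summed to 39.5 to 44.0 CPM with PA4 and 39.5 to 44.8 CPM in control, and natural killer markers to 16.0005 to 18.8 CPM with PA4 and 17.8 to 20.3 CPM in control. Epithelial markers summed to 140.5 to 142 CPM with PA4 and 133 to 137 CPM in control without overlap. Nearly all came from EPCAM, at 134 ± 1.19 CPM with PA4 and 126 ± 2.61 CPM in control (SD, n = 3 each). EPCAM had an edgeR adjusted p of 0.933, and the groups did not overlap in 11.2% of all tested genes. Of these other lists 3 B cell, 2 natural killer, 2 epithelial and 1 fibroblast marker were tested and 0 called. Myeloid and pluripotent stem cell markers were all too low to be tested. The part of these markers in the results was not tested. CPM are counts per 1000000 after TMM scaling of library sizes. In RNA from whole cultures, fewer cells that express a gene and less of its RNA per cell cannot be told apart.

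None of the 10 genes changed with PA4 by the tests used. In edgeR's quasi-likelihood test over all 12107 tested genes, 0 of the 10 were called at an adjusted p under 0.05, against 0.231% of all tested genes, and their adjusted p-values were 0.993 to 0.998. DESeq2 and limma-voom also called 0, and 0 of the 10 had an unadjusted edgeR p under 0.05, against 5.29% of all tested genes. The PA4 and control libraries overlapped in each of the 10 genes, while they did not overlap in 11.2% of all tested genes. All 10 passed the filter on low counts. Their log2 fold changes, PA4 over control, ran from -0.074 for ORAI1 to 0.054 for ITPR2, with a median of 0.010 against -0.0040 over all tested genes, and 7 were positive and 3 negative. For 9 of the 10, all but ORAI1, the whole 95% interval stayed inside a limit of 1.25-fold up or down, as it did for 71.6% of all tested genes. On data simulated from these libraries with 12107 genes, the procedure called 64.7% of the genes changed 1.25-fold and 93.3% of those changed 2-fold. Each simulated set held 200 changed genes, against 28 called in the data, and genes were drawn independently with no trend with GC content. The share that the test would call in the data may therefore be lower. The changed genes were drawn from all tested genes, whose median SE was 0.069 log2, against 0.045 for the 10 genes. The shares called are thus not specific to the 10.

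**Figure D1:**
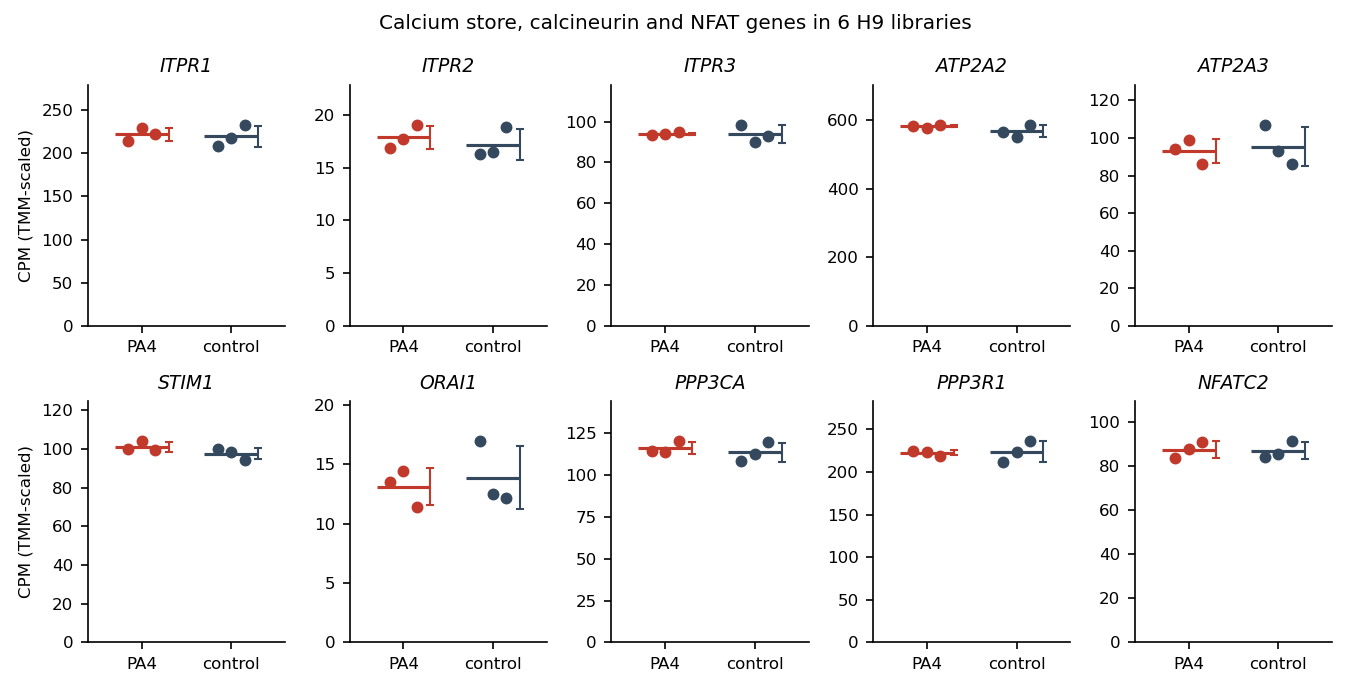
CPM of each of the 10 genes in the 3 PA4 libraries and the 3 control libraries. Points are libraries in replicate order, bars are group means and whiskers SDs, and each axis starts at 0. ATP2A2 has the highest CPM, a value not scaled by gene length, at 579 to 587 with PA4 and 553 to 587 in control. In every panel the groups overlap.

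IP3 receptors are the channels through which stored calcium leaves. ITPR1, the gene of the type 1 receptor, lies on chromosome 3 of GRCh38 at 4493348 to 4847506. It had 214, 229 and 223 CPM in PA4 replicates 1 to 3, against 209, 217 and 233 CPM in control replicates 1 to 3. The control libraries were both lower and higher than any PA4 library. Its log2 fold change was 0.014 ± 0.043 (SE), with a 95% interval of -0.076 to 0.10. ITPR3, the type 3 receptor gene, is on chromosome 6 at 33621322 to 33696562. It had 93.3, 93.8 and 94.7 CPM with PA4, against 98.5, 89.9 and 93.1 CPM in control. All PA4 values lay inside the control range, and the log2 fold change was 0.0016 ± 0.045 (SE). Exons of ITPR3 overlap those of UQCC2 on the opposite strand over 1025 bases, or 10.4% of its exon bases in GENCODE release 29. UQCC2 had 2925 counts over the 6 libraries, and whether counting used strand is not given in the sources used here. A part of the reads of either gene could thus have gone to the other or been counted for neither.

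ITPR2, the type 2 receptor gene on chromosome 12 at 26335352 to 26833194, was the scarce one. It had 16.9, 17.7 and 19.1 CPM with PA4, against 16.3, 16.5 and 18.8 CPM in control. The groups overlapped, with replicate 3 the highest in both. Its log2 fold change of 0.054 ± 0.083 (SE) had an interval of -0.12 to 0.23, the widest of the 10 after that of ORAI1. Within the summed receptor level, in CPM per kilobase of gene model, ITPR1 made up 64.7% ± 0.694 with PA4 and 64.6% ± 1.75 in control (SD, n = 3 each). ITPR3 made up 31.1% ± 0.658 with PA4 and 31.3% ± 1.91 in control, and ITPR2 4.24% ± 0.215 with PA4 and 4.11% ± 0.197 in control. These shares rest on the deposited length of ITPR1, 10242 bases, against 32454 exon bases in GENCODE release 29. With GENCODE lengths, an alternative chosen after seeing the data, ITPR1 made up 38.5% with PA4 and 38.4% in control, and ITPR3 was the larger at 53.6% with PA4 and 53.9% in control.

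SERCA pumps use ATP to carry calcium from the cytosol back into the store. ATP2A2, the gene of the SERCA pump found in nearly all tissues, lies on chromosome 12 at 110280616 to 110351093. It had 585, 579 and 587 CPM with PA4, against 568, 553 and 587 CPM in control. The PA4 libraries were close together, above control replicates 1 and 2 and at or just below control replicate 3. The log2 fold change was 0.036 ± 0.031 (SE), with an interval of -0.029 to 0.10, the smallest error of the 10. ATP2A3, the SERCA gene typical of blood cells, lies on chromosome 17 at 3923873 to 3964437. It had 93.9, 98.9 and 86.2 CPM with PA4, against 107, 92.9 and 86.4 CPM in control. Control replicate 1 stood above the other 5 libraries, and the log2 fold change was -0.036 ± 0.067 (SE), with an interval of -0.18 to 0.11. Of the summed SERCA level per kilobase, ATP2A2 made up 78.5% ± 1.25 with PA4 and 77.6% ± 2.20 in control (SD, n = 3 each), and the muscle pump gene ATP2A1 0.243% with PA4 and 0.311% in control.

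Entry of calcium from outside follows the emptying of the store. STIM1, the sensor of store calcium, lies on chromosome 11 at 3854604 to 4093210. It had 99.9, 104 and 99.5 CPM with PA4, against 99.98, 98.5 and 94.3 CPM in control. The highest value was a PA4 library and the lowest a control library, with overlap between them. The log2 fold change was 0.052 ± 0.043 (SE), with an interval of -0.039 to 0.14 and an unadjusted edgeR p of 0.240, the lowest of the 10. ORAI1, the pore of the entry channel, lies on chromosome 12 at 121626530 to 121643109. It had 13.5, 14.4 and 11.4 CPM with PA4, against 16.9, 12.5 and 12.1 CPM in control. Control replicate 1 was again the highest library and PA4 replicate 3 the lowest. Its log2 fold change of -0.074 ± 0.12 (SE) had an interval of -0.33 to 0.18, which is a fold change of 0.796 to 1.13. Leaving out 1 library at a time gave -0.16, without control replicate 3, to 0.097, without control replicate 1, and 2 of these 6 values were positive.

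H9 cells expressed the paralogues of both genes. STIM2, a sensor that responds to smaller losses of store calcium, had 43.7 ± 0.629 CPM with PA4 and 45.2 ± 2.00 CPM in control (SD, n = 3 each). ORAI2 had 272 ± 8.85 CPM with PA4 and 272 ± 22.4 CPM in control, and ORAI3 at most 8 counts with PA4 and 14 in control. Per kilobase, ORAI2 took 73.9% ± 1.69 of the ORAI level with PA4 and 72.8% ± 2.21 in control, and ORAI1 25.7% ± 1.72 with PA4 and 26.6% ± 1.98 in control. These shares depend on the length of the gene model, which is 10811 bases for ORAI2 and 1496 for ORAI1. STIM1 took 73.4% ± 0.507 of the STIM level with PA4 and 72.0% ± 1.49 in control.

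**Figure D2:**
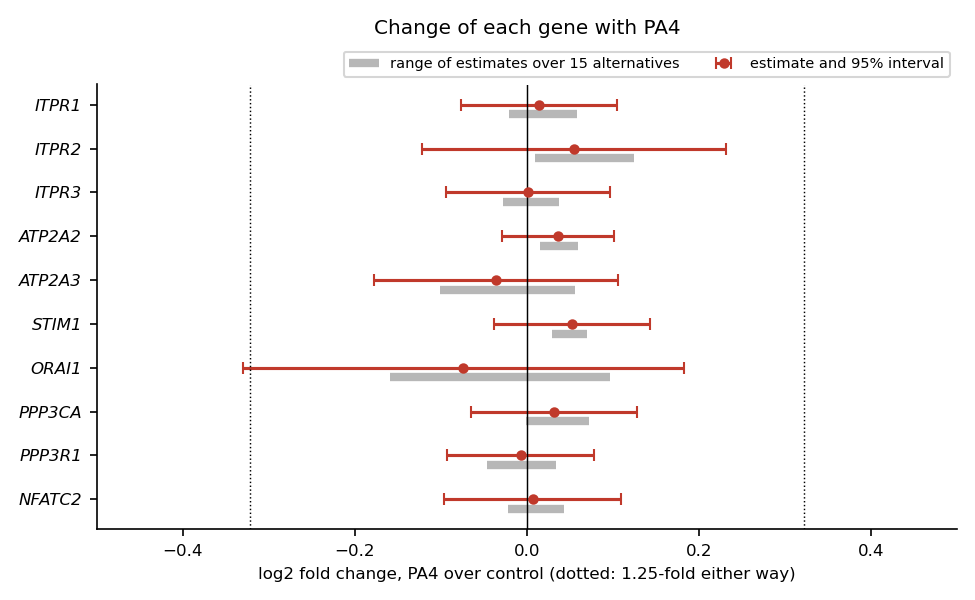
Log2 fold change, PA4 over control, of the 10 genes with the 95% interval of edgeR's test in red, and in grey the range of the estimate over 15 alternative settings. Dotted lines mark 1.25-fold in either direction. Every interval includes 0, and only that of ORAI1, from -0.33 to 0.18, reaches past a dotted line.

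Calcineurin is a phosphatase made of a catalytic chain and a regulatory chain that binds calcium. PPP3CA, the catalytic alpha chain, lies on chromosome 4 at 101023418 to 101347526. It had 114, 113 and 120.1 CPM with PA4, against 108, 112 and 119.8 CPM in control. In both groups replicate 3 was the highest, and the groups overlapped. PPP3R1, the common regulatory chain, lies on chromosome 2 at 68178857 to 68252532. It had 225, 223 and 219 CPM with PA4, against 211, 223 and 236 CPM in control. The PA4 values lay inside the control range. The log2 fold changes were 0.031 ± 0.046 (SE) for PPP3CA and -0.0073 ± 0.040 (SE) for PPP3R1, with intervals of -0.065 to 0.13 and -0.093 to 0.078.

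PPP3CB, the beta catalytic chain, had 76.7 ± 1.55 CPM with PA4 and 79.3 ± 4.13 CPM in control (SD, n = 3 each). PPP3CC, the gamma chain, had 16.6 ± 1.598 CPM with PA4 and 18.01 ± 0.729 CPM in control, while PPP3R2, the regulatory chain of testis, had 0 counts in all 6 libraries. PPP3CA made up 51.1%, 50.3% and 52.4% of the catalytic level per kilobase in PA4 replicates 1 to 3, against 49.3%, 49.5% and 49.8% in control replicates 1 to 3. These were the only shares of the 9 members tested whose groups did not overlap. The difference was 1.75 percentage points, with an exact permutation p of 0.1 (two-sided), the smallest that 3 against 3 libraries allow. After Benjamini-Hochberg adjustment over 9 shares the p of that test was 0.9. No share could reach a p under 0.05 in this test, so it could not decide whether the share changed. Leaving out 1 library at a time gave 1.17 to 2.24 points. The other 8 shares had adjusted p-values of 0.9 to 1 in the same test.

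**Figure D3:**
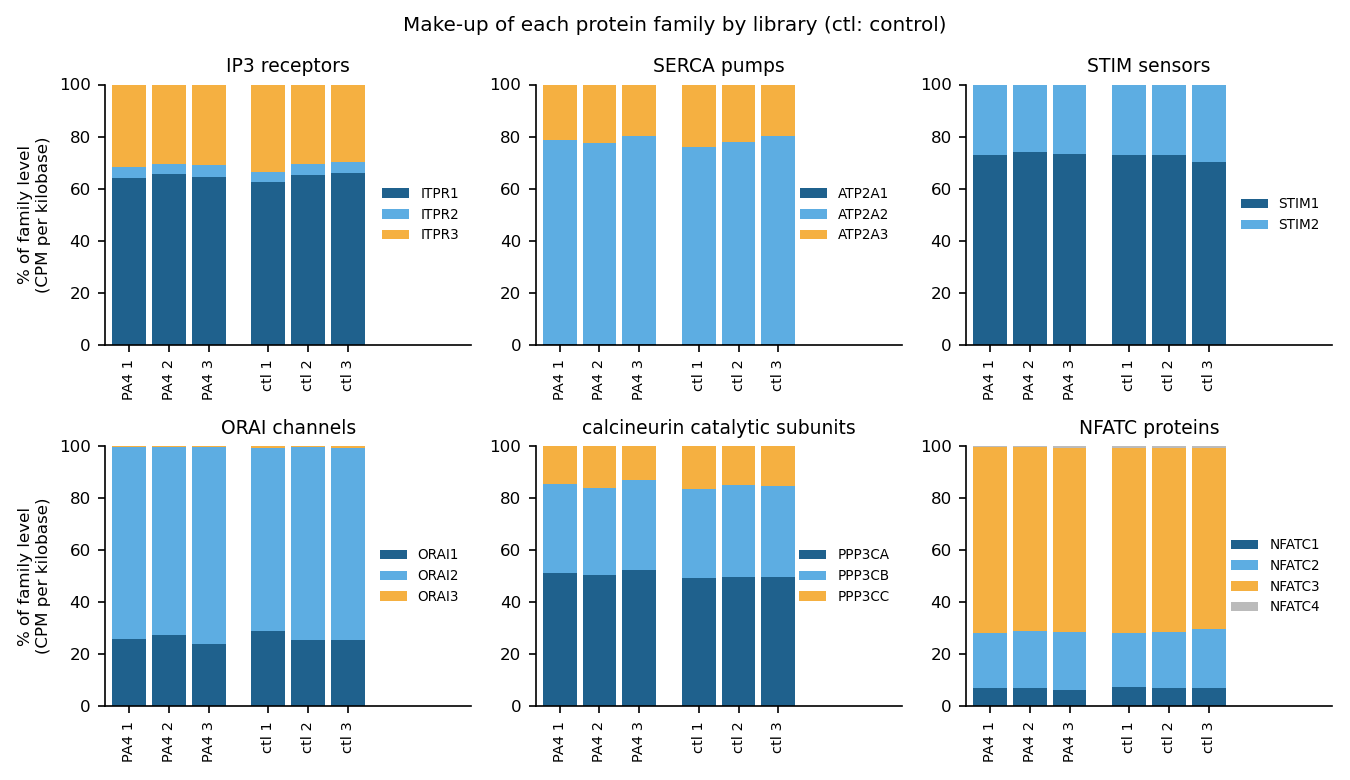
Share of each gene in the summed level of its protein family, in CPM per kilobase of gene model, for the 3 PA4 libraries and the 3 control libraries (ctl), each bar 1 library. ITPR1, ATP2A2, STIM1, ORAI2, PPP3CA and NFATC3 are the largest in their families in all 6 libraries with the deposited lengths, whereas with GENCODE exon lengths ITPR3 replaces ITPR1.

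NFATC2 is the NFAT protein also known as NFAT1, which is dephosphorylated by calcineurin and acts on cytokine genes in T cells. The gene lies on chromosome 20 at 51386963 to 51562839. It had 83.6, 87.6 and 91.1 CPM with PA4, against 84.2, 85.5 and 91.3 CPM in control. The groups covered nearly the same range, and the log2 fold change was 0.0066 ± 0.048 (SE), with an interval of -0.096 to 0.11. NFATC3 was the most abundant NFATC gene, at 240.0 ± 2.704 CPM with PA4 and 238 ± 2.75 CPM in control (SD, n = 3 each). NFATC1 had 20.2 ± 1.10 CPM with PA4 and 21.0 ± 0.902 CPM in control, and NFATC4 1.81 ± 0.253 CPM with PA4 and 2.08 ± 0.219 CPM in control. NFATC2 made up 21.6% ± 0.609 of the summed NFATC level per kilobase with PA4 and 21.6% ± 0.957 in control. NFAT5, which answers to osmotic stress and lacks the calcineurin docking region, had 103, 113 and 123 CPM with PA4, against 105, 101 and 105 CPM in control, with a log2 fold change of 0.12 ± 0.05 (SE) and an edgeR adjusted p of 0.920.

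RefSeq for GRCh38 lists 2 starts for NFATC2 and 6 for RCAN1, whose protein binds and inhibits calcineurin. The table holds 1 count per gene, and which of these starts the counting annotation covered is not given. RCAN1 is a well-known calcineurin and NFAT target through an internal start. The windows below run from 250 bases before to 50 bases after a start, 5′ to 3′ on the gene's minus strand. They are shown because the counts cannot separate these starts, and capitals mark GGAAA or its reverse complement TTTCC, the core letters that NFAT proteins bind.
NFATC2 first start, chr20:51562790-51563089: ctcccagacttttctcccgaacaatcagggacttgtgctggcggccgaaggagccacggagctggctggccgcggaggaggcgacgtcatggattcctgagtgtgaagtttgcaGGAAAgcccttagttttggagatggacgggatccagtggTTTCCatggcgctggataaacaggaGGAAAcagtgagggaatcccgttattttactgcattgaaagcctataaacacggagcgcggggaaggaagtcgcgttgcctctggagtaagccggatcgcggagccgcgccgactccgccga
NFATC2 second start, chr20:51542670-51542969: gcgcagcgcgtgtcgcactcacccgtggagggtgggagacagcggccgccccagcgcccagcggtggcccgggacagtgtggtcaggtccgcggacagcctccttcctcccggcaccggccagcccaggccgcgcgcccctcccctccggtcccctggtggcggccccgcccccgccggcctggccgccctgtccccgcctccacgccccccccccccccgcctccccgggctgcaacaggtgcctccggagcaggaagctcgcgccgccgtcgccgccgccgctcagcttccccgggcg
RCAN1, an internal start, chr21:34526773-34527072: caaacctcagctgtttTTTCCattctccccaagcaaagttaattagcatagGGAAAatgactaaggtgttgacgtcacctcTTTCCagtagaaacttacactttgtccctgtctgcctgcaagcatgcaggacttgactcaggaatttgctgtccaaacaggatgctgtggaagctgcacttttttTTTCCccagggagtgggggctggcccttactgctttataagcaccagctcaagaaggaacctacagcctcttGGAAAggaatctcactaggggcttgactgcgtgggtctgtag
The first NFATC2 window held the core letters 3 times and the second 0 times, while the RCAN1 window, chosen as the RCAN1 window with the most, held them 5 times. Each of the other RCAN1 windows held them 0 times or 1 time. Of 35116 RefSeq windows of this length, 61.2% held GGAAA or TTTCC at least once, 9.94% at least 3 times and 0.74% at least 5 times. These shares are for windows not chosen by their count, so 0.74% does not measure how rare the chosen RCAN1 window is. RefSeq windows were matched for 6 of the 10 members, and 7 of their 11 windows held these letters. A match of 5 letters is a description of the sequence and not a binding site. RCAN1 had 22.7, 21.0 and 22.9 CPM with PA4, against 21.2, 23.3 and 21.4 CPM in control, and its log2 fold change was 0.013 ± 0.073 (SE), with an interval of -0.14 to 0.17.

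Most cytokine and checkpoint genes known as NFAT targets were barely detected in either group. Of 28 listed targets 18 were too low to be tested, with at most 11 counts in any library. IL2, the T cell growth factor, had 6, 2 and 1 counts with PA4, against 4, 2 and 3 counts in control, and IL2RA, a chain of its receptor, 9 to 10 counts with PA4 and 3 to 9 in control. Of the 10 tested targets 0 were called, and 0 were higher and 2 lower at an unadjusted edgeR p under 0.05, a threshold that 5.29% of all tested genes passed in either direction. These were XCL1, a chemokine gene with the near-identical copy XCL2, and TOX, a regulator of T cell development. TOX had 125, 129 and 130.5 CPM with PA4, against 145, 144 and 145 CPM in control, with no overlap. Its log2 fold change was -0.18 ± 0.04 (SE) with an edgeR adjusted p of 0.0983, which ranged from 0.00187 to 0.873 over 15 alternatives. XCL1 had 5.94, 5.79 and 5.37 CPM with PA4, against 7.66, 7.33 and 6.40 CPM in control, with an edgeR adjusted p of 0.783.

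The wider pathway held 92 tested genes in 10 lists, of which edgeR, DESeq2 and limma-voom each called 0. At an unadjusted edgeR p under 0.05, 2 were higher and 4 lower with PA4, 6 of 92 against 5.29% of all tested genes, and the groups did not overlap in 12 of 92 against 11.2%. The median log2 fold change of the 92 was -0.0019. Beside the IP3 receptors, 9 release and leak channels were tested, with a median of -0.036. TPCN1, a calcium channel of endosomes and lysosomes, had 46.1, 49.4 and 44.9 CPM with PA4, against 50.8, 51.6 and 51.3 CPM in control, with an edgeR adjusted p of 0.879. The PA4 libraries were all below the control libraries. TMBIM6, a membrane protein that lets calcium leak from the store, was the most abundant of that list per kilobase, at 561 ± 1.79 CPM with PA4 and 554 ± 7.65 CPM in control (SD, n = 3 each). The ryanodine receptor genes RYR1 and RYR2, which form the large release channels of muscle, were also tested and not called, and RYR3 had at most 1 count in a library.

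Genes that make or break down IP3 had a median log2 fold change of -0.00012 over 11 tested. PLCG1, the phospholipase C of the T cell receptor, had 127 ± 2.00 CPM with PA4 and 127 ± 3.16 CPM in control (SD, n = 3 each). Of that list PLCB1 and PLCB2, phospholipases coupled to G proteins, had the highest and lowest values among genes of 5 CPM or more, at 0.11 ± 0.09 and -0.045 ± 0.090 log2 (SE). The 7 partners of IP3 receptors had a median of 0.0040. TESPA1, which couples the receptor to T cell receptor signalling, was at 0.015 ± 0.043 log2 (SE), AHCYL1, which competes with IP3 for the receptor, at -0.032 ± 0.039, and LRMP, an older symbol of IRAG2, at -0.14 ± 0.11.

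Pumps and exchangers beside the 2 member pumps had a median of 0.015 over 7 tested. ATP2B1, which expels calcium across the plasma membrane, had 144 ± 8.18 CPM with PA4 and 140.4 ± 7.65 CPM in control, and ATP2C1, the pump of the Golgi, 278 ± 4.77 CPM with PA4 and 282 ± 10.8 CPM in control (SD, n = 3 each). VMP1, which promotes SERCA activity, had a log2 fold change of -0.029 ± 0.042 (SE). The SERCA inhibitor genes of muscle, PLN and SLN, had 0 counts in all 6 libraries. Other genes of store-operated entry had a median of 0.0034 over 8 tested, from STIM2 at -0.049 ± 0.054 log2 (SE) to ESYT1, a tether between the store and the plasma membrane, at 0.055 ± 0.040, among genes of 5 CPM or more. SARAF, which turns entry off, was the most abundant per kilobase and stood at 0.025 ± 0.036.

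Calcium-binding proteins inside the store had a median of 0.0071 over 11 tested. HSPA5, the chaperone BiP, had 850.3, 836 and 850.5 CPM with PA4, against 774, 817 and 798 CPM in control. All 3 PA4 libraries lay above the control libraries, with a log2 fold change of 0.086 ± 0.029 (SE), an unadjusted p of 0.00902 and an edgeR adjusted p of 0.700, so it was not called. With GC offsets the log2 fold change was 0.082 and the edgeR adjusted p 0.0386, and with block and GC offsets together the edgeR adjusted p was 0.0231, a call in both. HSP90B1, the most abundant per kilobase with the deposited lengths, a rank that depends on the gene model, was at 0.033 ± 0.030 log2 (SE). RCN2, at the low end, was at -0.076 ± 0.056. Genes of calcium uptake by mitochondria had a median of -0.040 over 11 tested. MICU3, a regulator of the uptake channel, had 7.23, 7.501 and 9.10 CPM with PA4, against 9.16, 9.31 and 10.2 CPM in control, with an edgeR adjusted p of 0.840. VDAC1, a pore of the outer mitochondrial membrane, was at -0.012 ± 0.030 log2 (SE), and CCDC109B, an older symbol of MCUB, at 0.044 ± 0.062.

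Lists of calcineurin and NFAT regulators had small medians as well. Over 9 tested genes of the calcineurin list the median log2 fold change was -0.012, from PPP3CC at -0.11 ± 0.08 (SE) to CHP1, a calcium-binding inhibitor of calcineurin, at 0.084 ± 0.048. PPIA, the cyclophilin that binds ciclosporin, was the most abundant, at 2627 ± 41.2 CPM with PA4 and 2615 ± 9.37 CPM in control (SD, n = 3 each), a value uncertain because PPIA has many near-identical pseudogenes. Over 10 tested genes of the NFAT list the median was 0.0096, with a range of -0.21 to 0.27. NFAT5 was at 0.12 ± 0.05 log2 (SE), with an edgeR p of 0.036 unadjusted and 0.920 adjusted. NFATC4, of low level, was at -0.21 ± 0.19. CSNK1A1, a kinase that returns NFAT to the cytosol, was at -0.014 ± 0.038 log2 (SE), and NFATC1 at -0.053 ± 0.074. Within the targets TNF, at 0.083 ± 0.079 log2 (SE), had the highest value among genes of 5 CPM or more.

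**Figure D4:**
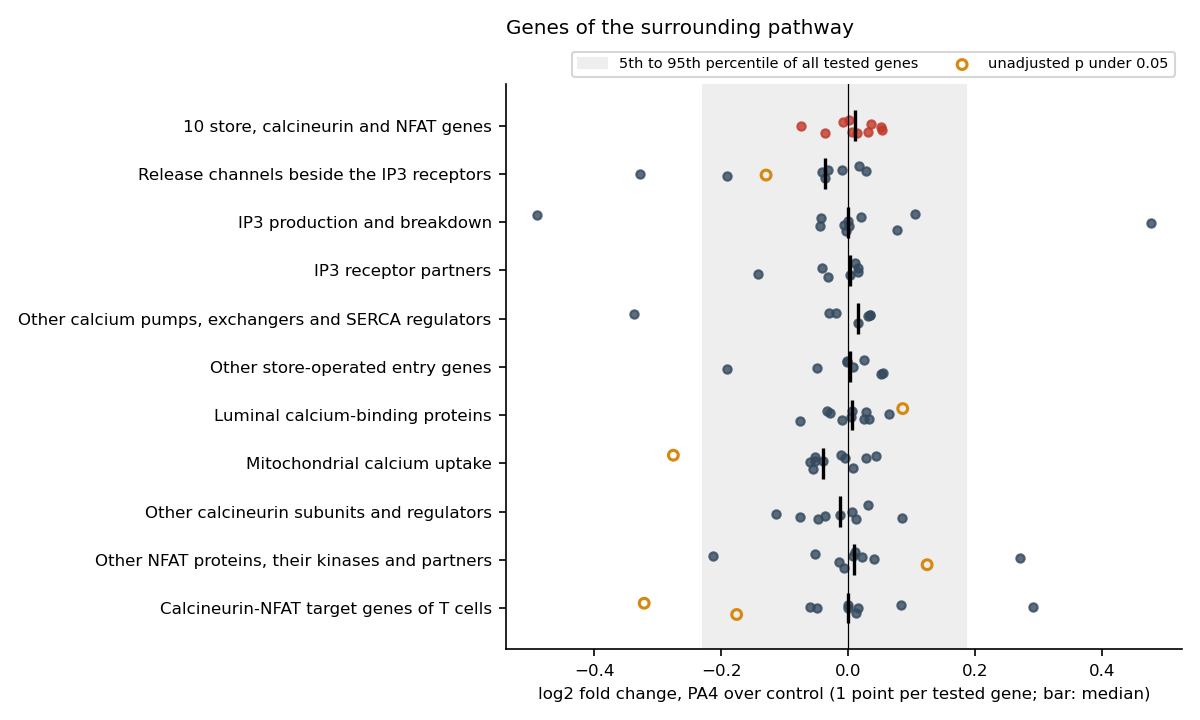
Log2 fold change, PA4 over control, of each tested gene, with the 10 store, calcineurin and NFAT genes in the top row and 10 lists of surrounding genes under it. Black bars are medians, open circles have an unadjusted p under 0.05, and the grey band spans the 5th to 95th percentile of all tested genes, -0.23 to 0.19. The 10 genes of the top row all lie inside the band, between -0.074 and 0.054.

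Levels of different genes were compared per kilobase of gene model, over all 6 libraries. PPP3R1, at 70.2 to 78.4 CPM per kilobase, and ATP2A2, at 66.5 to 70.7, were the highest and overlapped each other, above 92.4% and 91.8% of tested genes. PPP3CA, at 23.2 to 25.7, STIM1, at 21.5 to 23.7, ITPR1, at 20.4 to 22.8, and ATP2A3, at 17.7 to 21.9, followed, and each overlapped the next. A gap without overlap separated them from NFATC2, at 10.7 to 11.7, ITPR3, at 9.95 to 10.9, and ORAI1, at 7.62 to 11.3, which again overlapped. ITPR2, at 1.29 to 1.52, stood below all of these. These levels depend on the gene model. With GENCODE exon lengths 7 of the 9 neighbouring steps had no overlap, against 3 with the deposited lengths, and PPP3R1, at 62.9 to 70.2, stood apart from ATP2A2, at 40.2 to 42.7. STIM1 then had 13.2 to 14.6 CPM per kilobase, ORAI1 5.04 to 7.49 and ITPR1 6.44 to 7.18, and the rank of ITPR1 was 8 of 10 in place of 5.

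Among the 10 genes, differences between control replicates 1 and 3 ran with base composition. Of all pairs of libraries this pair was the furthest apart, with a chi-square divided by its degrees of freedom of 6.81. ORAI1 and ATP2A3 have the highest GC content of the 10, at 65.8% and 63.3% of transcript bases, and their log2 ratios of control replicate 1 to control replicate 3 were 0.48 and 0.31. PPP3R1, ITPR2 and PPP3CA have the lowest, at 40.7%, 41.3% and 42.7%, and their ratios were -0.16, -0.21 and -0.14. Over the 10 genes the ratio and GC content had a Spearman rho of 0.915, and over the 8251 tested genes that averaged at least 10 CPM and had a GC value a rho of 0.783. These are descriptions of a pair of libraries, and genes are not independent replicates. In genes of 60% GC or more the median ratio was 0.26 between control replicates 1 and 3, and 0.066 between PA4 replicates 1 and 3. The coefficient of variation was lower with PA4 in 10 of the 10 genes, as in 66.4% of all tested genes, and for ORAI1 it was 11.9% with PA4 and 19.2% in control. With offsets that remove the trend with GC content in each library, the log2 fold change of ORAI1 was -0.046 ± 0.083 (SE) and that of ATP2A3 -0.017 ± 0.035, and 0 of the 10 genes were called.

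**Figure D5:**
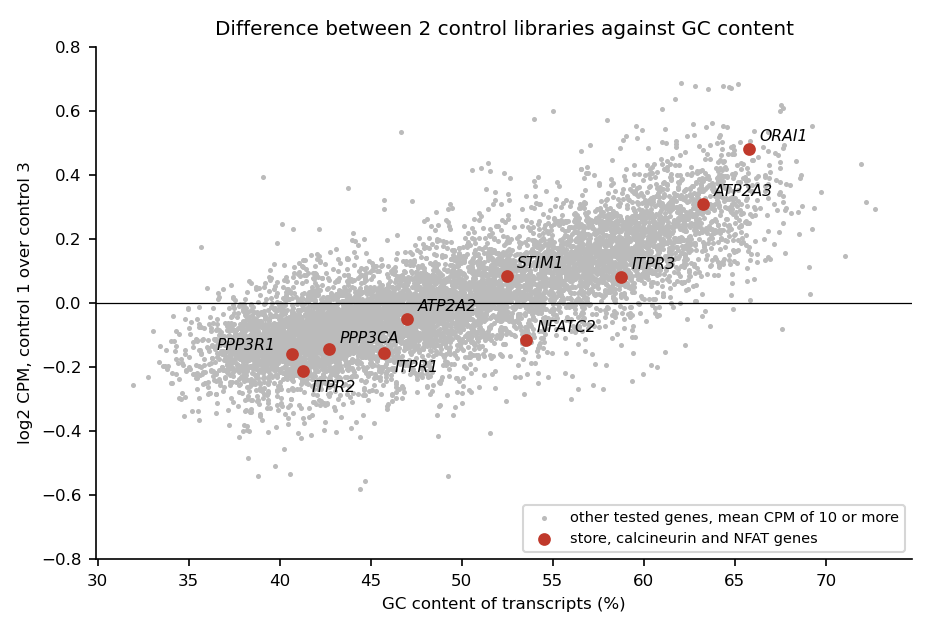
Log2 ratio of CPM in control replicate 1 to control replicate 3 against the GC content of each gene's transcripts, with the 10 store, calcineurin and NFAT genes in red and other tested genes that averaged at least 10 CPM in grey. ORAI1 and ATP2A3, at 0.48 and 0.31, lie at the upper right, and ITPR2, at -0.21, at the lower left.

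The 10 genes went different ways within a library, so that their average says little of any one of them. In control replicate 1, ORAI1 lay 0.33 and ATP2A3 0.19 above their own means over all libraries on the log2 scale, while ITPR2 was at -0.10 and PPP3CA at -0.081. The average of the 10, centred in the same way, stood at -0.011, 0.031 and -0.0064 log2 in PA4 replicates 1 to 3, against 0.018, -0.040 and 0.0079 log2 in control replicates 1 to 3. Among 8554 other tested genes that averaged at least 10 CPM, the profiles nearest to this average were those of CAMSAP1, EIF1AD and PRPF8, with root-mean-square differences of 0.0074, 0.0079 and 0.0096 log2 over 6 libraries.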

How the data were processed

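The authors' deposited table holds raw counts of reads per gene symbol, 1 column per library, and a gene model length in bases. Trimmomatic 0.39, fastp 0.23.2, STAR 2.7.9a, featureCounts of Subread 1.6.4 and build hg38 are named in the submitters' processing notes. No source used here gives the annotation, the strand setting or the handling of multiply aligned reads. Groups came from the treatment label. The main test was edgeR 4.0.16 in R 4.3.3 (filterByExpr, TMM, glmQLFit, glmQLFTest, no covariate, 6 libraries), with Benjamini-Hochberg adjustment over all 12107 tested genes and a call at an adjusted p under 0.05. The median SE of a log2 fold change was 0.045 for the members and 0.069 for all tested genes. SEs and 95% intervals come from the F statistic. DESeq2 1.42.0, limma-voom (limma 3.58.1), RLE and library-size scaling, no filter, a replicate block, GC offsets, thinned counts and leaving out each library were alternatives. Shares and levels per kilobase were also taken with GENCODE exon lengths, chosen after seeing the data. Profiles were centred on log2(CPM + 0.5). The procedure was tested on simulated data with 200 changed genes per set in 3 sets. Promoter sequences and coordinates are from RefSeq, build GRCh38.p14, and GC content and exon overlaps from GENCODE release 29 (GRCh38).

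The members and lists were chosen with earlier results of these data known. The text names all members, in each list the highest and lowest fold change among genes averaging at least 5 CPM, the most abundant gene per kilobase, any called gene, and paralogues and targets fixed by name. RYR1, RYR2, RYR3, PLN, SLN, PPP3R2 and ATP2A1 were named after their values were seen. No 2 libraries were alike within counting error: the chi-square of a pair divided by its degrees of freedom was 1.48 to 6.81.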

Additional observations from a re-analysis of the deposited data

How the results depend on the processing

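No member was called in any of 15 alternatives, which were RLE and library-size scaling, no low-count filter, DESeq2, limma-voom, the replicate block, GC offsets, block and GC offsets together, thinned counts and 6 fits that each left out 1 library. The lowest adjusted p of a member was 0.547. The count of members with an interval within 1.25-fold was 9 or 10. Estimates ran from -0.16 to 0.12 log2 and kept their sign in 132 of 150 cases, in all 15 for 3 members, ITPR2, ATP2A2 and STIM1. Against 28 genes called in all, no low-count filter gave 62, the replicate block 59, GC offsets 111, block with GC offsets 146, and fits without 1 library 17 to 74, where omitting control replicate 1 gave 74, omitting control replicate 2 gave 17 and omitting PA4 replicate 1 gave 18. Against 0 context genes called, no low-count filter and the replicate block gave 1 each, which was TOX, GC offsets and both together gave 2 each, which were TOX and HSPA5, and leaving out 1 library gave 0 to 1, TOX without control replicate 1. Why these counts moved was not tested. Whether replicate numbers pair the libraries was not settled. The deviations from group means of libraries with 1 number had correlations of 0.16, -0.089 and 0.42. In genes of 60% GC or more, the median log2 ratio of replicate 1 to replicate 3 was 0.26 in control and 0.066 with PA4, the same direction in both groups. For the members the block changed no call. Of the family shares 0 passed in any setting, but none could have. The smallest p of the exact permutation test was 0.1 for 3 against 3 libraries, and 0.1 also with 1 library left out. That is above the threshold of 0.05, so this test could not decide whether shares changed. With GENCODE exon lengths, chosen after seeing the data, the share test had the same limit and 0 shares passed. With these lengths 7 neighbouring levels stood apart, against 3 with the deposited lengths, through the lengths alone. ORAI1 had the widest interval, and its SE was 0.12 at full depth, 0.12 with thinned counts and 0.083 with GC offsets. Thinning only lowered each library to the smallest total, 18282212 counts. Why the SE differed between settings was not tested.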
